A study of Mus musculus with 10 samples.

Results

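Rn45s, Rmrp, Rpph1 and Terc, 4 noncoding RNAs that serve the basic machinery of every cell, were followed in the nascent RNA of mouse embryonic stem cells while Xist was switched on. The set was defined as the rows named Rn45s, Rn7sk, Rmrp, Rpph1 or Terc that occur in all 10 tables, and it was selected on measured abundance, since Rn45s holds more counts than any other gene in these libraries. Of the 5 names, 4 had a row in every table, out of 24386 genes; Rn7sk is not analysed here. The cells were TX1072, a female line of WT genotype from a cross of Mus musculus castaneus (Cast) and C57BL/6 (B6), in which doxycycline (DOX) induces Xist from the B6 X chromosome. They were grown on gelatin in medium with serum, LIF and 2i. DOX at 1 μg/ml was present for 0, 4, 8, 12 or 24 h, and in the last 5 min before lysis 4-thiouridine (4sU, 0.5 mM) marked new RNA. Labelled RNA was pulled down and sequenced (TT-seq), with 2 replicates per time. The 0 h cells carried the same inducible allele without DOX, no sample had DOX without inducible Xist, and longer DOX also meant longer culture, so the drug, Xist and culture time cannot be told apart. TX1072 is a single hybrid line. The study speaks of biological duplicates, and the labels give only a replicate number. The p-values set differences between times against the spread between these libraries.

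These RNAs are made by different polymerases and work in different machines. Rn45s is the precursor of ribosomal RNA, transcribed in the nucleolus by RNA polymerase I from many near-identical gene copies and then cut into the 18S, 5.8S and 28S RNAs. Rmrp is the RNA of RNase MRP, which cuts that precursor, and Rpph1 is the RNA of RNase P, which removes the leader of transfer RNA precursors. Both are made by RNA polymerase III from promoters that lie upstream of the gene, and their enzymes share most of their protein subunits. Terc is the RNA of telomerase, made by RNA polymerase II, and it carries the template for telomere repeats.

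The tables place Rn45s on the plus strand of chromosome 17 at chr17:39842997-39848829 (mm10), a span of 5833 bp. Rmrp lies on the minus strand at chr4:43492785-43493059 (275 bp), Rpph1 on the minus strand at chr14:50807447-50807771 (325 bp) and Terc on the minus strand at chr3:96414437-96414833 (397 bp). GENCODE M21 lists Rpph1 as a ribozyme, Terc as a misc_RNA and Rmrp under 2 overlapping entries, a ribozyme and a lincRNA, and a gene named Rn45s was not found there. None of the 4 spans overlaps another gene on its strand in the tables. The Rn45s row is 1 annotated copy of a repeated gene and was read with unique alignments, so its count stands for the reads that had 1 best place in the genome and cannot be tied to a copy. The library kit is listed with Ribo-Zero, reagents that remove ribosomal RNA, and how much precursor they removed was not tested.

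The RNAs of the pair that varied together most closely are shown first, from GENCODE M21 (GRCm38). Capitals mark T, which stands for U in the RNA, the base at which 4sU can be built in. Rmrp is shown whole and Rpph1 without its last bases.
Rmrp: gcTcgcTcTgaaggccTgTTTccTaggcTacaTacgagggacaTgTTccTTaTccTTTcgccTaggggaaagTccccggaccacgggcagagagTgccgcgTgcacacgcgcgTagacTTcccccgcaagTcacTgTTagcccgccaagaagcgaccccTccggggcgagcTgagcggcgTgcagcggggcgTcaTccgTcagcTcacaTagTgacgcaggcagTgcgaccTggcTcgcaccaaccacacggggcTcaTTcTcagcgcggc
Rpph1: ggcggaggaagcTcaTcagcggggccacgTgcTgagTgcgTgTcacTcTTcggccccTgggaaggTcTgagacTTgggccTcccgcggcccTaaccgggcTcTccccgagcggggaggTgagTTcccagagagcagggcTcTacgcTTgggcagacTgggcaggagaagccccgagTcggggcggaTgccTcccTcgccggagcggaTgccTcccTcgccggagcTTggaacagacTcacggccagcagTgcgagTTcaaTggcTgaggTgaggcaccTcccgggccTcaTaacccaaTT
T made up 46 of the 271 bases of Rmrp (17%) and 51 of the 319 bases of the Rpph1 transcript (16%), so the pair offered similar numbers of sites for the label. They are not copies of each other, and their longest shared run is 9 bases. For Terc the first bases of the transcript are shown, with the letters CCTAACCC, which serve as the telomere template, in capitals. They occur once in the transcript, at positions 28 to 35 from the 5′ end of the GENCODE entry of 423 bases. That entry starts at 96414859 on the minus strand, upstream of the counted span of 397 bp, which starts at 96414833. The positions are thus not those within the counted span.
Terc: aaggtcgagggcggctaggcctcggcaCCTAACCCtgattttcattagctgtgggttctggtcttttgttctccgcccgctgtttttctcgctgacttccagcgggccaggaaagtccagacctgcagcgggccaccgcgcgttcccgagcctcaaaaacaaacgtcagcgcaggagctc
T made up 76 of the 423 bases of Terc (18%).

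Library totals ran from 18809046 to 22274929 counts in the 10 samples, and levels below are in CPM, the count scaled to a common library size with TMM factors. The stem cell identity was checked on 10 markers, whose summed level was 2673 to 2937 CPM; 6 of them had a mean of at least 50 CPM, and Sox2, which lies inside Sox2ot on the same strand, was at 0 in all samples. Summed levels were 2.96 to 6.06 CPM for 8 fibroblast and feeder markers, with Postn and Lum at 0, and 1.78 to 2.92 CPM for 6 endoderm markers, with Afp and Ttr at 0. None of the tested markers was called at any time against 0 h. In these bulk samples fewer cells making an RNA and less RNA per cell cannot be told apart.

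Rn45s was the most abundant row in every library, which is how it was chosen. It took 1.38% of all counts in 0 h replicate 1 (95% Wilson interval 1.38% to 1.39%) and 1.01% in 0 h replicate 2. The 4 h libraries both gave 1.06%, the 8 h libraries 1.19% and 0.964%, the 12 h libraries 0.892% and 0.987%, and the 24 h libraries 1.11% and 1.02%. The highest share was thus in an untreated library and the lowest in a 12 h library, and the 12 h pair lay below the 0 h pair. At the other times at least 1 library lay above 0 h replicate 2. The intervals cover counting error only, since reads without molecular identifiers are not independent molecules. The gene with the next highest count was Kat6b, a histone acetyltransferase, in 7 libraries and Diaph2, an actin regulator, in 3, and Rn45s had 4.13 to 6.69 times its count.

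Rmrp stood out in 3 libraries. It was at 138 CPM in 0 h replicate 1 and 87.0 CPM in replicate 2. The 4 h libraries held 92.5 and 86.2 CPM and the 8 h libraries 85.9 and 93.9 CPM. It then reached 193 CPM in 12 h replicate 1 against 80.4 CPM in replicate 2, and 281 CPM in 24 h replicate 1 against 76.8 CPM in replicate 2. The 7 other libraries lay between 76.8 and 93.9 CPM, so the 3 high values all belong to replicate 1, and the highest and the lowest value of the course belong to the same time. The highest was 3.66 times the lowest.

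Rpph1 followed the same libraries. The 0 h libraries held 105 and 66.7 CPM, the 4 h libraries 64.8 and 68.0 CPM and the 8 h libraries 64.2 and 75.1 CPM. In replicate 1 it was at 153 CPM at 12 h and 236 CPM at 24 h. In replicate 2 it was at 66.7 and 58.9 CPM at these times. The same 3 libraries were high, and at 24 h the pair of replicates held the extremes, 4.01 times apart.

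Terc was low and varied less. The 0 h libraries held 5.46 and 4.12 CPM and the 4 h libraries 5.27 and 4.26 CPM. The 8 h libraries held 3.11 and 3.58 CPM, the 12 h libraries 6.13 and 4.96 CPM, and the 24 h libraries 4.67 and 3.50 CPM. Both 8 h libraries lay below both 0 h libraries, and at the other times the values overlapped those of 0 h. Behind these values stand 66 to 125 counts per library. In the lowest library (8 h replicate 1, 66 counts) its share of all counts was 0.000308%, with a 95% Wilson interval from 0.000242% to 0.000392%. In the highest (12 h replicate 1, 125 counts) it was 0.000595%, with an interval from 0.000499% to 0.000709%.

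**Figure D1:**
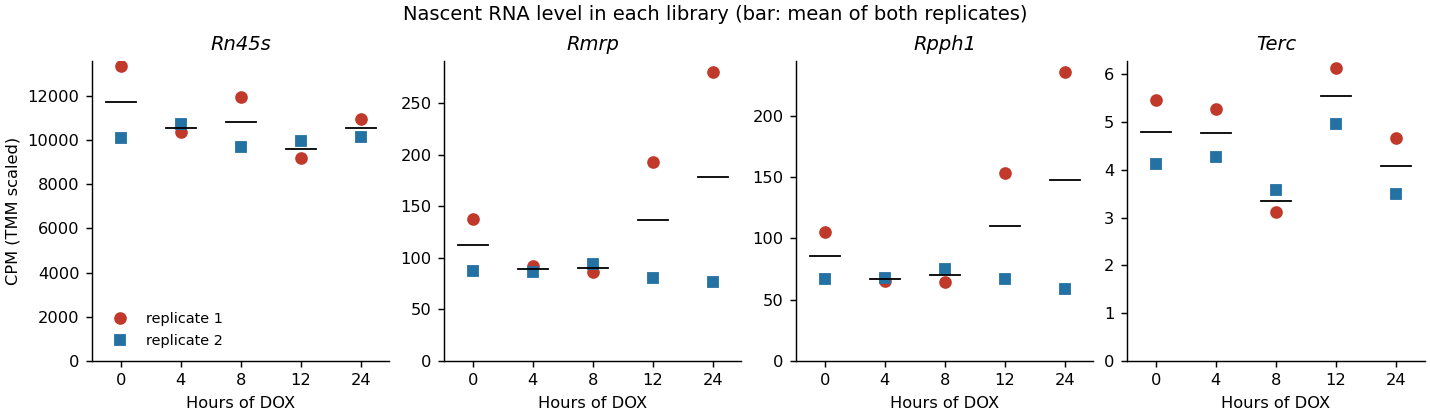
Level of each RNA (CPM, linear axis from 0) against hours of DOX, with 1 point per library and a bar at the mean of both replicates. Rmrp and Rpph1 were high in replicate 1 at 0, 12 and 24 h, up to 281 and 236 CPM, while their replicate 2 libraries stayed between 76.8 and 93.9 CPM for Rmrp and between 58.9 and 75.1 CPM for Rpph1.

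Set per kb of gene so that genes can be compared, the mean level over the 10 libraries was 1827 CPM per kb for Rn45s (SD 209, n = 10), 442 for Rmrp (SD 242), 295 for Rpph1 (SD 176) and 11.3 for Terc (SD 2.44). Rn45s ranked first and Rmrp ranked 2nd among the tested genes in every library on this scale, Rpph1 ranked 3 to 5 and Terc 324 to 756. The order of the 4 was the same in all 10 libraries. The lowest Rn45s level, 1577 CPM per kb, lay above the highest Rmrp level, 1023, whereas the ranges of Rmrp (279 to 1023) and Rpph1 (181 to 727) overlapped between libraries. By count alone, Rmrp ranked 782 to 3467 and Rpph1 1043 to 4125, since both genes are short.

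Each DOX time was compared with 0 h to ask whether the level of these RNAs in the pulled-down RNA changed while Xist was induced. No total RNA was compared here, and unlabelled RNA carried through the pull-down was not measured. With edgeR's quasi-likelihood test and an adjusted p under 0.05 as the call, 0 of the 4 RNAs were called at any time. Over all 14525 genes tested, the share called was 0.0138% for 4 h, 0.193% for 8 h, 0.95% for 12 h and 1.85% for 24 h, so few genes of any kind passed. With the replicate number as a block, 0 of the 4 were again called, and the shares of all genes were 0.0344%, 0.744%, 4.94% and 5.32% in the same order. DESeq2 and limma-voom also called 0 of the 4. Of all 14525 genes, DESeq2 called 3, 45, 176 and 276 at 4, 8, 12 and 24 h, and limma-voom called 2, 29, 136 and 264. At an unadjusted p under 0.05 there was 1 of the 4 at 8 h (Terc), 1 at 12 h (Rn45s) and 0 at 4 and 24 h, where 2.09%, 4.06%, 11.5% and 10.3% of all genes passed at 4, 8, 12 and 24 h. With the block, 2 of the 4 had an unadjusted p under 0.05 at 24 h, where 16.1% of all genes did. They were Rmrp (log2 change 0.54, edgeR adjusted p 0.125) and Rpph1 (log2 change 0.65, edgeR adjusted p 0.0834). At the earlier times the block gave 0 at 4 h, 1 at 8 h (Terc) and 1 at 12 h (Rn45s). Of all genes, 5.2%, 8.05% and 19.2% passed at these times with the block.

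Rn45s was lower than 0 h in the estimate at every time. Its log2 change was -0.15 (4 h), -0.12 (8 h), -0.29 (12 h) and -0.15 (24 h). The 12 h value had an interval from -0.56 to -0.03 (SE 0.126, unadjusted p 0.034, edgeR adjusted p 0.382). The intervals at the other times included 0 and were bounded by -0.42 and 0.15, so a change beyond these limits lies outside the intervals. For 12 h, the fit blocked by replicate gave -0.28 (edgeR adjusted p 0.0835). Dropping the filter on low counts gave -0.30 (edgeR adjusted p 0.0596). Both lay nearer the threshold than the main fit, and neither called Rn45s. DESeq2 and limma-voom gave adjusted p of 0.306 and 0.351 at 12 h. The Rn45s values moved with the 0 h pair. Without 0 h replicate 2 the 12 h change was -0.50 (edgeR adjusted p 0.0352), and without 0 h replicate 1 it was -0.08 (edgeR adjusted p 0.885), with changes of 0.07 (4 h), 0.10 (8 h) and 0.07 (24 h). Such a fit leaves 1 library at a time, which is assumed to vary like the other times, from which the spread is then taken.

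For Rmrp the log2 change at 24 h was 0.67 with a 95% interval from -0.25 to 1.58 (SE 0.429, edgeR adjusted p 0.683). For Rpph1 it was 0.78 with an interval from -0.17 to 1.72 (SE 0.442, edgeR adjusted p 0.621). Their estimates were below 0 at 4 and 8 h, from -0.37 to -0.30, and 0.28 and 0.36 at 12 h, with intervals that included 0 throughout. The 24 h estimates were set by 1 library. Without 24 h replicate 1 they were -0.56 for Rmrp and -0.55 for Rpph1. Without 24 h replicate 2 they were 1.32 for Rmrp and 1.45 for Rpph1, with 1 library at 24 h, the highest. Either fit takes the spread from the other times. Without the 3 high libraries together, a choice made after seeing the data, the changes at 24 h were -0.18 for both RNAs.

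Terc had a log2 change of -0.52 at 8 h, with an interval from -0.99 to -0.05 (SE 0.22, unadjusted p 0.0324, edgeR adjusted p 0.996). The 4, 12 and 24 h changes of -0.01, 0.21 and -0.23 had intervals that included 0. The largest step between successive times was from 8 to 12 h, a log2 change of 0.73 with an interval from 0.27 to 1.19 (unadjusted p 0.00439, edgeR adjusted p 0.979), and all 4 libraries took part without overlap. No RNA of the 4 was called between successive times, where 0%, 0% and 0.00688% of all genes were called from 4 to 8, 8 to 12 and 12 to 24 h. With the replicate block 0 were called as well, beside 0.241%, 0.282% and 1.48% of all genes. At an unadjusted p under 0.05 without the block, Terc was the 1 RNA from 4 to 8 and from 8 to 12 h, and there was 0 from 12 to 24 h, where 2.31%, 4.4% and 9.02% of all genes passed. With the block 3 of the 4 passed at that level from 8 to 12 h, where 8.61% of all genes did, with edgeR adjusted p of 0.0703 for Terc, 0.491 for Rpph1 and 0.511 for Rmrp. DESeq2 and limma-voom were run only against 0 h.

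**Figure D2:**
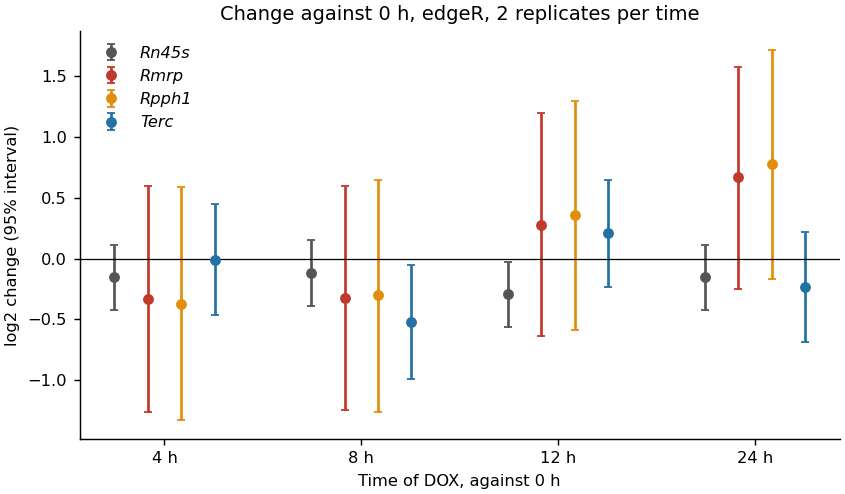
Fitted log2 change of each RNA against 0 h at 4 times of DOX, with 95% intervals from edgeR without a replicate block (2 replicates per time). The intervals of Rmrp and Rpph1 were wide, reaching from -0.17 to 1.72 for Rpph1 at 24 h, and those of Rn45s were narrow, within -0.56 and 0.15.

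Tests over the whole course asked for any difference among the 5 times and for a linear trend with hours. For any difference, 0 of the 4 were called by edgeR, with 1.25% of all genes called, and Terc was alone at an unadjusted p under 0.05 (p 0.0436, edgeR adjusted p 0.569), a level that 8.45% of all genes passed. Without the filter on low counts, Rmrp (edgeR adjusted p 0.0276) and Rpph1 (edgeR adjusted p 0.00843) were called, where 385 of 19606 genes were. Without 24 h replicate 2, with 1 library left at 24 h, the call of Rpph1 changed as well. With the replicate number as a block, Rmrp (edgeR adjusted p 0.0247) and Rpph1 (edgeR adjusted p 0.0156) were called, where 6.12% of all genes were. Terc (edgeR adjusted p 0.0616) and Rn45s (edgeR adjusted p 0.369) were not called with the block. For the trend, 0 of the 4 were called, with 3.15% of all genes called, and 2 of the 4 had an unadjusted p under 0.05, as 13.2% of all genes did. The slope was 0.0364 per hour on the log2 scale for Rmrp (interval 0.00634 to 0.0665, unadjusted p 0.02, edgeR adjusted p 0.239) and 0.042 for Rpph1 (interval 0.0109 to 0.0732, unadjusted p 0.0107, edgeR adjusted p 0.17). With the replicate block, where 5.67% of all genes were called, the slope of Rpph1 was called (0.0343 per hour, edgeR adjusted p 0.0402), and that of Rmrp was not (0.029 per hour, edgeR adjusted p 0.0611). The block takes away 1 constant difference between the replicate series, whereas the gap between replicates was not constant for this pair. Without 24 h replicate 1 both slopes were slightly negative, -0.00721 for Rmrp and -0.00436 for Rpph1. Without 24 h replicate 2 they were 0.0577 and 0.0646 per hour.

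The gap between replicates of a time was therefore described for its own sake. For Rmrp the log2 ratio of replicate 1 to replicate 2 was 0.67 (0 h), 0.10 (4 h), -0.13 (8 h), 1.26 (12 h) and 1.87 (24 h). For Rpph1 it was 0.66, -0.07, -0.23, 1.20 and 2.00 at the same times. Among 4585 genes with a mean of at least 50 CPM, 1 gene had a larger gap at 24 h than Rmrp and 0 had a larger one than Rpph1. At 12 h these numbers were 0 for Rmrp and 1 for Rpph1, and at 0 h they were 3 and 5. The median gap of those genes was 0.118 for 0 h, 0.0669 for 12 h and 0.0734 for 24 h. At 4 h, 1922 genes had a larger gap than Rmrp and 2637 than Rpph1, and at 8 h these numbers were 1083 and 270. For Rn45s the log2 ratio was 0.40 at 0 h and 0.30 at 8 h, with 97 and 100 genes above it, and at the other times it lay between -0.12 and 0.11.

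The variation between replicates that edgeR fits over all times (the biological coefficient of variation) was 0.293 for Rmrp and 0.301 for Rpph1. It was 0.117 for Terc and 0.0843 for Rn45s, and the median was 0.0594 over the 4585 genes of at least 50 CPM. None of those genes exceeded Rpph1, and Rpph1 was the one gene above Rmrp. Of the same genes, 30 exceeded Terc, whose counts are lower, and 189 exceeded Rn45s. The blocked fit gave a log2 difference of replicate 2 from replicate 1 of -0.77 for Rmrp, -0.74 for Rpph1, -0.27 for Terc and -0.13 for Rn45s. These are descriptions, since the replicate term was looked at because the gaps had been seen, and it takes the gap as constant over time. Over all genes edgeR called 11.7% for this term, 927 lower and 776 higher in replicate 2.

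**Figure D3:**
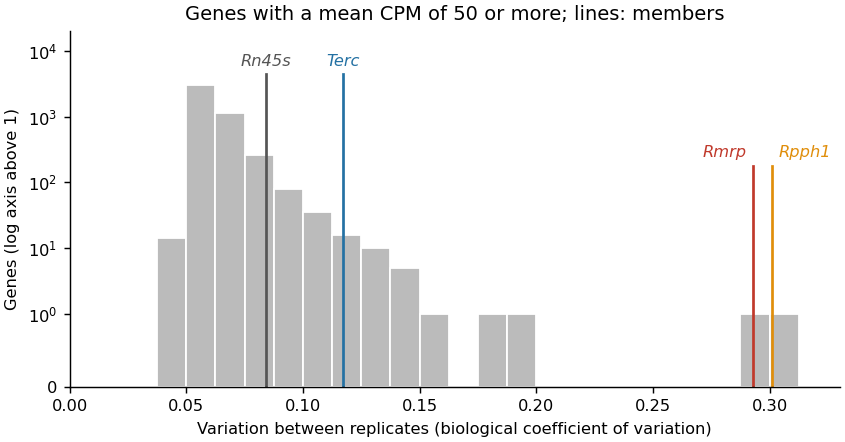
Number of genes (log axis above 1) by the biological coefficient of variation between replicates, for the 4585 genes with a mean of at least 50 CPM, with lines at the 4 RNAs. Rmrp (0.293) and Rpph1 (0.301) stood apart at the right end, beyond Rn45s (0.0843) and Terc (0.117, a gene below 50 CPM and not in the bars), which also lay above the median of 0.0594.

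Rmrp and Rpph1 kept nearly the same proportion throughout. The count of Rpph1 over that of Rmrp was 0.779 ± 0.0404 (SD, n = 10), with a range from 0.701 to 0.839, although each RNA alone ranged more than 3-fold. Across the 10 libraries, log2 CPM of the pair had a Pearson r of 0.995 and a Spearman rho of 0.891, given as a description, since the libraries share their run and 3 of them stand apart. Without 24 h and 12 h replicate 1, r was 0.961 and rho 0.786 over 8 libraries. Without 0 h replicate 1 as well, left out after seeing the data, r was 0.72 and rho 0.679 over 7 libraries. For Terc, r was 0.523 with Rmrp and 0.503 with Rpph1, and for Rn45s it was -0.081 to 0.081 with the other 3 RNAs. The libraries high in Rmrp and Rpph1 were thus not as a group those high in Rn45s.

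**Figure D4:**
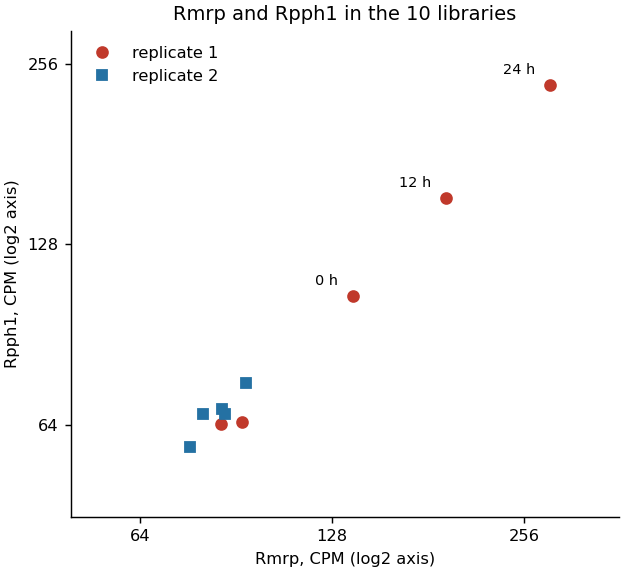
Rpph1 against Rmrp in the 10 libraries (CPM, both axes log2), with the replicate given by colour and shape. The points lay along a line, with 0, 12 and 24 h replicate 1 above the cluster of 7 other libraries (76.8 to 93.9 CPM of Rmrp).

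Both genes lie head to head with a protein-coding gene on the plus strand. The start of Parp2, a poly(ADP-ribose) polymerase of DNA repair, is 175 bp from that of Rpph1, and the start of Ccdc107, a coiled-coil protein gene, is 306 bp from that of Rmrp. Rn45s and Terc have no gene start within 5 kb. The space between the starts is shown because it holds the upstream sequence of Rpph1 and part of that of Rmrp. The windows are RefSeq promoter windows of the neighbours (GRCm38.p6, plus strand) at chr14:50807666-50807965 and chr4:43493115-43493414. Capitals mark the octamer ATTTGCAT, known as a binding site of Oct-1 in such promoters, and the letters TATAA, searched on both strands.
Parp2 and Rpph1: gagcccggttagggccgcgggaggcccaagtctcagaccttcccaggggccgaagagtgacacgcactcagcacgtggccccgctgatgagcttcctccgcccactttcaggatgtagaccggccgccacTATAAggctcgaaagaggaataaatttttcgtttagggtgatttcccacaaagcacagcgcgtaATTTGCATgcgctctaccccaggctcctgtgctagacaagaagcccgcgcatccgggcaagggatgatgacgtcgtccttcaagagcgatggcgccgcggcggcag
Ccdc107 and Rmrp: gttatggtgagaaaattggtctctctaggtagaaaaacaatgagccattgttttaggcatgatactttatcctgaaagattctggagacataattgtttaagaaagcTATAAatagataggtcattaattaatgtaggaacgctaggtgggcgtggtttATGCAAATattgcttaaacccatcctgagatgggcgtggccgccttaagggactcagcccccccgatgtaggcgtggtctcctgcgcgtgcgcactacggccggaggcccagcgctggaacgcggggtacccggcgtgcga
The first 106 bases of the Parp2 window belong to Rpph1 itself. Counted from the deposited start of Rpph1, the TATAA match on the plus strand begins 25 bases upstream and the octamer 89 bases upstream. From the deposited start of Rmrp, the nearest base of the octamer lies 215 bases upstream. This octamer is on the minus strand and so printed as ATGCAAAT. The TATAA match, on the plus strand, begins 163 bases upstream of Rmrp. The bases next to Rmrp lie outside the window. Of 32851 promoter windows of this length, 1.74% held the octamer, 24.9% held TATAA and 0.597% held both. The motifs were chosen after the windows were seen, and a match is a description of letters, not a shown site. Promoter windows were found for none of the 4 RNAs by name.

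The neighbours did not share the spread of the pair. Parp2 ranged from 22.7 to 26.1 CPM over the 10 libraries, a ratio of 1.15, where Rpph1 ranged 4.01-fold. Ccdc107 ranged from 2.1 to 2.73 CPM, a ratio of 1.30, where Rmrp ranged 3.66-fold. At 24 h against 0 h, the log2 change was 0.09 for Parp2 (edgeR adjusted p 0.865) and 0.01 for Ccdc107 (edgeR adjusted p 0.995).

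The summed levels of histone genes and of short genes were highest in the same libraries, with smaller ratios. The 60 genes whose symbols begin with Hist, mostly replication histone genes, summed to 829 CPM of all counts in 24 h replicate 1 and 522 CPM in replicate 2. They summed to 779.9 CPM in 0 h replicate 1 and 779 CPM in 12 h replicate 1, and the other 7 libraries lay at or below 710.4 CPM. The 1299 genes of at most 500 bp other than these RNAs summed to 659.8 CPM in 24 h replicate 1, 657 CPM in 0 h replicate 1 and 613 CPM in 12 h replicate 1, and to at most 574 CPM elsewhere. The 3 libraries with the highest Rmrp and Rpph1 were thus the 3 with the highest histone and short-gene sums, with ratios of the highest to the lowest library of 1.59 and 1.38 against 3.66 and 4.01. Some histone genes belong to both sums, and the short-gene sum was not taken without them. The part of these genes in the result was not tested.

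**Figure D5:**
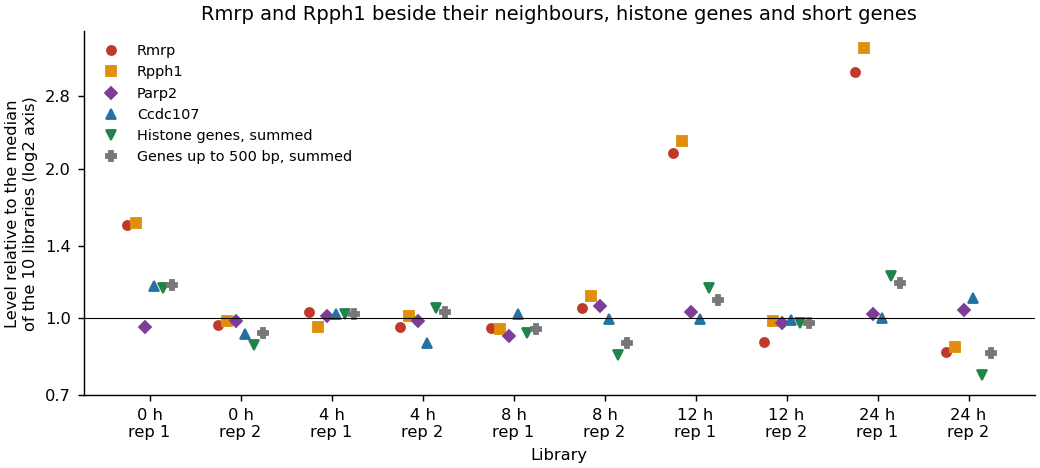
Level in each library relative to the median of the 10 libraries (log2 axis) for Rmrp, Rpph1, their neighbours Ccdc107 and Parp2, and the summed histone genes and genes of at most 500 bp. In 24 h replicate 1, Rpph1 stood at 3.51 times and Rmrp at 3.13 times its median, the histone sum at 1.22, the short-gene sum at 1.18 and Parp2 at 1.02.

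The genes whose log2 CPM went most closely with each RNA over the 10 libraries were taken by Pearson r among all tested genes. For Rmrp they were Rpph1 (0.995), Mtg1 (0.956) and Nefl (0.954), and for Rpph1 they were Rmrp, Hist1h4h (0.957) and Mtg1 (0.953). Hist1h4h, a histone H4 gene, ranged from 11.2 to 23.1 CPM with its top in 24 h replicate 1. For Terc they were Hist1h2bg (0.949), a histone H2B gene, Itga11 (0.945) and Zbtb2 (0.919). Hist1h2bg was at 27.5 to 44.4 CPM, lowest and highest in the same libraries as Terc. For Rn45s they were Shisa9 (0.935), Gm12866 (0.924) and Stox1 (0.921), all of them below 6 CPM.

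The proteins that make or work with these RNAs were counted from lists of known members. Of 21 genes for RNA polymerase I transcription, 0 were called at any time against 0 h, and their median log2 change at 24 h was 0.00, beside 0.01 over all genes tested. The largest change of the list at 24 h was that of Ptrf, which releases transcripts of polymerase I and also builds caveolae; at 5 to 20 counts per library it was 1.35 in log2 (SE 0.436, edgeR adjusted p 0.194). With the replicate block, 1 of the 21 was called. Of all 14525 genes tested, 292 were called at any time and 1125 with the block. Each list count here and below is to be read beside these.

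Of 46 tested genes for the processing of ribosomal RNA precursors, 1 was called, beside 292 of all 14525 genes. Las1l, an endonuclease that cuts a spacer of the precursor, is X-linked and fell from 60.2 ± 1.98 CPM at 0 h to 42.9 ± 0.168 CPM at 24 h (SD, n = 2). The 0 h libraries held 58.8 and 61.6 CPM, the 4 h libraries 56.0 and 53.3 CPM, the 8 h libraries 48.2 and 45.5 CPM, the 12 h libraries 43.6 and 46.3 CPM and the 24 h libraries 42.8 and 43.1 CPM. Every library from 4 h on lay below both 0 h libraries. On the log2 scale the 12 h change was -0.42 (edgeR adjusted p 0.0165). The 24 h change was -0.49 (SE 0.0797, edgeR adjusted p 0.00284). Its change at 8 h, -0.36, was called only with the replicate block (edgeR adjusted p 0.125 without it and 0.00635 with it). The median of the list at 24 h was -0.03. With the block 3 of the 46 were called, beside 1125 of all 14525 genes.

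Of the 10 tested proteins of RNase P and RNase MRP, the enzymes of Rpph1 and Rmrp, 0 were called with or without the block. Their median log2 change was -0.04 at 24 h, and the largest was that of Rpp25, a subunit of both enzymes, at 0.28 (SE 0.17, edgeR adjusted p 0.651). Rpp25 was at 10.6 CPM in 24 h replicate 1 and 8.43 CPM in replicate 2, and at 6.77 to 9.28 CPM elsewhere. Of 30 genes for RNA polymerase III transcription, 0 were called, and 1 with the block. Polr3d, a subunit of the polymerase, had the largest change at 24 h, -0.29 (SE 0.173, edgeR adjusted p 0.641), and the median was 0.03.

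Of 7 telomerase proteins, 0 were called, and 1 with the block. Tert, the reverse transcriptase that works on Terc, was at 18.3 to 26.3 CPM, and its 24 h change was -0.18 in log2 (SE 0.147, edgeR adjusted p 0.773). Of 7 genes of the 7SK complex and P-TEFb, which releases paused RNA polymerase II, 0 were called either way. Hexim2, an inhibitor of P-TEFb, had the largest change of these at 24 h, 0.19 (SE 0.268, edgeR adjusted p 0.892).

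Of 30 other noncoding housekeeping RNAs looked for, 8 had a row and 3 passed the filter on low counts. Rnu11 and Rnu12 are RNAs of the minor spliceosome and Scarna2 guides the modification of spliceosomal RNA. For Rnu11 the 0 h libraries held 5.27 and 5.08 CPM, the 12 h libraries 2.21 and 3.13 CPM and the 24 h libraries 4.77 and 4.58 CPM. Its 12 h libraries lay below those of 0 h, a difference of -0.95 in log2 (SE 0.23, edgeR adjusted p 0.0752), which passed only with the replicate block (edgeR adjusted p 0.00282). Scarna2 was at 2.52 to 3.89 CPM and Rnu12 at 1.31 to 2.54 CPM, with 24 h changes of -0.25 and -0.51 (edgeR adjusted p 0.807 and 0.497). Rn4.5s had at most 6 counts in a library. The 3 libraries with high Rmrp and Rpph1 were not jointly high in the summed level of these 8 RNAs, which was 12.4 CPM in 0 h replicate 1, 7.43 CPM in 12 h replicate 1 and 9.61 CPM in 24 h replicate 1.

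The share of reads from each parental allele could not be read for these RNAs. Allelic reads made up 49.2% to 52.8% of all counts in a library. For Rn45s there were 0 allelic reads among 2202412 counts, which allows a share of up to 0.000136% of counts. For Rpph1 there were 0 of 19663 and for Terc 0 of 928, which allow up to 0.0153% and 0.323%. These limits treat reads as independent and hold only where a read could be assigned to an allele. Whether a strain difference lies in these spans was not checked. Rmrp had 10 allelic reads among 24931 counts, 2 of B6 and 8 of Cast, with at most 3 in a library, so no level of the B6 share was taken for any of the 4.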

How the data were processed

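TT-seq libraries of TX1072 cells at 5 times of DOX (2 replicates each, 10 in all) were analysed from 1 table per sample. By the study's methods the authors trimmed reads with Cutadapt, aligned them with STAR to mm10 masked at strain differences, kept unique, properly paired alignments, split them by allele with SNPSplit and counted them by strand with featureCounts 1.5.1 over the longest refFlat span. The submitters' processing notes also list TopHat2 2.1.0, which the methods name for other RNA-seq data. Spike-in RNA was added, and no scaling to it is stated. The deposited counts of the authors are raw read pairs per gene (all, B6 and Cast). The deposited fraction of the authors, B6 over allelic counts, is given from 10 allelic reads on. Deposited starts were read as 0-based. No sample column lay outside the series.

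Groups and replicate numbers came from the labels. Total counts were 18809046 to 22274929 per sample. edgeR 4.0.16 in R 4.3.3 fitted a quasi-likelihood model with time as a factor to all 10 samples after filterByExpr (14525 of 24386 genes) and TMM scaling; a separate fit had hours as a number. Tests were two-sided with Benjamini-Hochberg adjustment over all tested genes, called under 0.05, and 95% intervals used the t distribution of the fit. An exact two-sided test of 2 samples against 2 cannot give a p under 0.333, so shares per time had no test. CPM in sums over gene sets was scaled by library total only. Correlations with all genes and replicate gaps over all genes used log2(CPM + 0.1), and those between members log2 CPM. Alternatives were RLE factors, library totals, Rn45s left out of the totals, other filters, DESeq2 1.42.0, limma-voom (limma 3.58.1), the 4 samples of both times alone, each sample left out, and a replicate block; library sizes from genes over 1 kb and the omission of 3 libraries were added after seeing the data. Differences between replicates correlated between every pair of times (Pearson r across genes 0.142 to 0.281, 10 pairs). The replicate numbers of the labels thus pair samples, and the main fit, without a block as planned, does not use this pairing. Blocked values stand beside results whose call they change. The planned test of the B6 share could not be run for any of the 4 RNAs, which lack 10 allelic reads per sample.

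The RNAs and lists were chosen with earlier results of these data known. Genes named were all members, every list gene called against 0 h or else the one with the largest 24 h change, up to 4 other noncoding RNAs of highest mean CPM, genes starting within 5 kb of a member or overlapping it, and the 3 genes most correlated with each member. Sequences came from GENCODE M21 and RefSeq tables. Python 3.11.15, pandas 2.3.3, numpy 2.4.6, scipy 1.17.1, Biopython 1.88 and matplotlib 3.10.9 were used.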

Additional observations from a re-analysis of the deposited data

How the results depend on the processing

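Against 0 h, 0 of the 4 RNAs were called under every alternative that kept all samples. Leaving out 1 library at a time gave 0 to 1 called at 12 h (Rn45s, without 0 h replicate 2), 0 to 1 at 24 h (Rpph1, without 24 h replicate 2), 0 to 1 for any difference among times and 0 to 2 for the trend (both without 24 h replicate 2). For any difference, 2 were called with no filter on low counts (Rmrp and Rpph1, edgeR adjusted p 0.0276 and 0.00843) and 2 with the replicate block; for the trend, 1 was called with the block. Beside these, the block changed no call of the 4. With the block, calls against 0 h at any time were 1 for polymerase I, 3 for precursor processing, 1 for telomerase, 1 for polymerase III and 1 for other noncoding RNAs. Over all 14525 genes tested there were 1125 such calls.

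Leaving out a single library turned the direction of 12 of 16 changes or, for Rpph1 at 4 h, brought it to 0.00. The 12 include Terc at 4 h, which was -0.01 with all libraries. The 4 others were Rn45s at 12 h and Terc at 8, 12 and 24 h. Leaving out 1 at a time, the log2 change at 4, 8, 12 and 24 h ran from -0.35 to 0.07, -0.32 to 0.10, -0.50 to -0.08 and -0.35 to 0.07 for Rn45s, from -0.64 to 0.05, -0.63 to 0.05, -0.49 to 0.77 and -0.56 to 1.32 for Rmrp, from -0.67 to 0.00, -0.61 to 0.07, -0.37 to 0.82 and -0.55 to 1.45 for Rpph1, and from -0.20 to 0.22, -0.72 to -0.30, 0.01 to 0.43 and -0.46 to -0.01 for Terc. Leaving out 0, 12 and 24 h replicate 1 together was chosen after seeing the data. It moved Rn45s to 0.07, 0.10 and 0.01 (4, 8 and 24 h). Rmrp moved to 0.05, 0.05, -0.11 and -0.18 (4, 8, 12 and 24 h). Rpph1 moved to 0.00, 0.07 and -0.18 (4, 8 and 24 h) and Terc to 0.22 (4 h). limma-voom gave 0.00 for Terc at 4 h. The cause was not tested. With Rn45s left out of the total, the 4 h share was 1.07% for Rn45s and 0.00672% for Rpph1.

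Over all genes, the block called 5, 108, 718 and 773 at 4, 8, 12 and 24 h, against 2, 28, 138 and 269 without it; for any difference 889 against 181 and for the trend 824 against 458. Between successive times the block called 35, 41 and 215, against 0, 0 and 1. Leaving out 1 library at a time gave 5 to 29 at 8 h, 53 to 222 at 12 h, 131 to 268 at 24 h, 117 to 179 for any difference and 300 to 450 for the trend, and leaving out the 3 libraries gave 7, 24 and 100 at 8, 12 and 24 h, 87 and 294. No filter gave 53 at 8 h, 266 at 12 h, 385 for any difference and 5, 2 and 19 between successive times, and DESeq2 gave 45 at 8 h. The fit to the 4 samples of both times gave 7 at 8 h and 84 at 12 h. The alternatives of the B6 share test were not run, as no RNA had enough allelic reads. Terc had 66 to 125 counts per library, which limits the precision of its values.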
